A study of Mus musculus with 1019 samples.

Results

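The lamin, vimentin and actin cytoskeleton genes described here are the 10 genes Lmna, Lmnb1, Vim, Actb, Actg1, Tagln2, Evl, Actn1, Ezr and Msn, of 13281 genes with at least 1 read tag in the data and 23725 rows in the deposited table. They were picked by name with earlier results of the same comparison of fat and spleen in view, so their differences between tissues are given as a description, with no test. The study profiled single regulatory T cells (Tregs, CD4+ T cells that restrain immune responses and are marked by the transcription factor Foxp3) with inDrops. In this droplet method mRNA is captured by its poly(A) tail, and each captured molecule is counted once through a unique molecular identifier (UMI). All cells came from male B6 mice aged 20 months. There are 2 libraries from visceral adipose tissue (VAT), numbered 2 and 3 in the labels and holding 330 and 314 cells, and 1 library from spleen holding 375 cells, 1019 cells in all. In both tissues the sort took DAPI- TCRb+ CD4+ CD25+ cells, so Tregs were selected through surface CD25 and not through Foxp3 itself. No genotype or treatment is named for any library.

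Lamins are the intermediate filaments of the nucleus: A-type lamins (from Lmna) and B-type lamins (from Lmnb1) line the inner nuclear membrane and set the stiffness of the nucleus. Vimentin is the main cytoplasmic intermediate filament of lymphocytes. Beta and gamma actin (Actb and Actg1) form the filaments that drive migration and the contact of a T cell with other cells, and the products of Tagln2, Evl, Actn1, Ezr and Msn bundle these filaments, extend them or tie them to the plasma membrane.

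Each library was treated as 1 sample, because the labels name no animal. With 1 spleen library there is no test and no p-value; each VAT library gets its own ratio to spleen, with an exact 95% interval for counting error only. The fat was treated with collagenase and dispase and the spleens were broken up mechanically, so tissue and dissociation cannot be told apart in any value below. The labels of the spleen cells also disagree: the source is spleen, the tissue field names both tissues, and the library number differs between fields. These cells were grouped by their source. The VAT libraries held 556099 and 548770 UMIs and the spleen library 573622, with medians of 1565 and 1611 UMIs per cell in VAT and 1423 in spleen, and 3 cell barcodes occurred in more than 1 library. The sorted identity was visible: Foxp3 had 263 and 189 UMIs in VAT and 221 in spleen, Il2ra, which encodes CD25, had 614 and 555 in VAT and 260 in spleen, and Cd4 had 374 and 233 in VAT and 400 in spleen.

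A promoter window of each of the 6 genes past 2-fold between VAT and spleen is shown first, with that of Ezr, which did not pass but holds a motif. The RefSeq table for GRCm38.p6 held 10 windows for 8 of the 10 genes, each spanning 250 bases before to 50 bases after an annotated transcript start. Actb and Lmnb1 had no window, so neither was searched for a motif. Capitals mark a CArG box, the site of serum response factor in actin gene promoters, in Actg1, and the AP-1 site TGACTCA, searched on both strands, in Lmna and Ezr. Vim, Tagln2, Actn1 and Evl held neither motif in these windows.
Lmna, chr3:88503303-88503602, minus strand: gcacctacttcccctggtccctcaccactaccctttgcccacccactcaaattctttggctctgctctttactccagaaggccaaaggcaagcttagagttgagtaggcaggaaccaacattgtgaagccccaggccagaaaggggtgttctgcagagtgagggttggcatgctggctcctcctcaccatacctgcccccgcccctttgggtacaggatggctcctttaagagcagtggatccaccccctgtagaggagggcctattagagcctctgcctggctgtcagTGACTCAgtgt
Ezr, chr17:6782731-6783030, minus strand: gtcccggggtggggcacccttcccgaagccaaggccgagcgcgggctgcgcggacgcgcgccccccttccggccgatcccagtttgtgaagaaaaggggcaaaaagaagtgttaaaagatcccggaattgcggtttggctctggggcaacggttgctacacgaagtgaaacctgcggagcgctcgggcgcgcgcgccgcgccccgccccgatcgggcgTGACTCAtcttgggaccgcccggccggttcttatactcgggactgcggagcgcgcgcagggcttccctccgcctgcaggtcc
Actg1, chr11:120348446-120348745, minus strand: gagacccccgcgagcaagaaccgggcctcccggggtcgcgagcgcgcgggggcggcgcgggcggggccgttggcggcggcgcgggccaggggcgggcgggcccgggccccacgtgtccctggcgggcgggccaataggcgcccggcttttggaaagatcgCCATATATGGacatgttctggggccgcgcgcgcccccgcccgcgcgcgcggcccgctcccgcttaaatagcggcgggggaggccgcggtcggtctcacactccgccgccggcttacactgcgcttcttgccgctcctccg
Vim, chr2:13574061-13574360, plus strand: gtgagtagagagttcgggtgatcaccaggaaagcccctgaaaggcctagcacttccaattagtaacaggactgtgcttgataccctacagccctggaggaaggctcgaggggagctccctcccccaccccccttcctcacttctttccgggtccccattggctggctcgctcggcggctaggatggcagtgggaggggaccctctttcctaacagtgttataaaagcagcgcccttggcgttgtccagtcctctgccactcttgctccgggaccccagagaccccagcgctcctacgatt
Actn1, chr12:80260314-80260613, minus strand: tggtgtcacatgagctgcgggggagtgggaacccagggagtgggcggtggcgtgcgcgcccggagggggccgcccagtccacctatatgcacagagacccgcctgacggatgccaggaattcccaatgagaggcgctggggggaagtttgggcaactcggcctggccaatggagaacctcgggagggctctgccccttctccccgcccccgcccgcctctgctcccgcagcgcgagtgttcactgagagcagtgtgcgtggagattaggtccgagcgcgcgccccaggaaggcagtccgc
Tagln2, chr1:172499996-172500295, plus strand: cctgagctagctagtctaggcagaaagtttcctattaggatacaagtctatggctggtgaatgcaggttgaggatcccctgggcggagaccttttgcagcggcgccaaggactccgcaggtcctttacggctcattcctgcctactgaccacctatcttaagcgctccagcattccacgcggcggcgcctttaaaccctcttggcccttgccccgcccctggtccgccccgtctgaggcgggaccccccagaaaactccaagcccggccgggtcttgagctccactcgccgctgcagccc
Evl, chr12:108554470-108554769, plus strand: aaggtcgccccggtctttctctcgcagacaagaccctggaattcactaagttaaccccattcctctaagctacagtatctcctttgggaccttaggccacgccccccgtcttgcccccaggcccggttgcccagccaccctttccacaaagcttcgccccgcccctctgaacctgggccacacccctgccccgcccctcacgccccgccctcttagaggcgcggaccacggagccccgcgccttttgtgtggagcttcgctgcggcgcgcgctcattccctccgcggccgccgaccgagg
The CArG box of Actg1 begins at position -90 relative to the start and was the only one in the 10 windows. Over all 32851 promoter windows of the table, 1.63% held a CArG box. The AP-1 sites began 39 bases after the start in Lmna and at position -32 in Ezr, and 5.20% of all windows held this motif. The printed windows of Lmna and Evl are each 1 of 2 in the table, and the others hold neither motif. Both Lmna windows lie inside the gene, whose outermost start is at 88509932. A match is a description of the letters and not of binding.

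Across the 10 genes, 4 were at least 2-fold higher in both VAT libraries than in spleen (Lmna, Vim, Actg1 and Tagln2), 2 were at least 2-fold lower (Evl and Actn1), and 4 passed neither bound (Lmnb1, Actb, Ezr and Msn). Of all 4635 genes with 50 or more UMIs over the 3 libraries, 10.3% were higher and 4.4% lower by the same rule. The members were chosen on this contrast, so nothing is read from their share. The median log2 ratio of the 10 genes was 0.76 in VAT library 2 and 0.41 in VAT library 3, beside 0.04 and -0.02 over all genes with 50 or more UMIs. Together the 10 genes took 2.64% and 2.53% of all UMIs in the VAT libraries, against 1.14% in spleen.

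Ribosomal protein mRNA took 17.9% and 19.9% of UMIs in VAT and 30.6% in spleen, which bears on every level scaled to the library total. With these genes left out of the totals, the median log2 ratio of all genes shifted by -0.24 and -0.21, and the split over all genes was 379 higher and 342 lower, against 478 and 204 with all genes in the totals. The same 6 genes passed the 2-fold rule on that scale, and the small excesses of Actb and Msn came to log2 ratios of 0.06 and 0.01 for Actb and 0.05 and 0.00 for Msn.

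**Figure D1:**
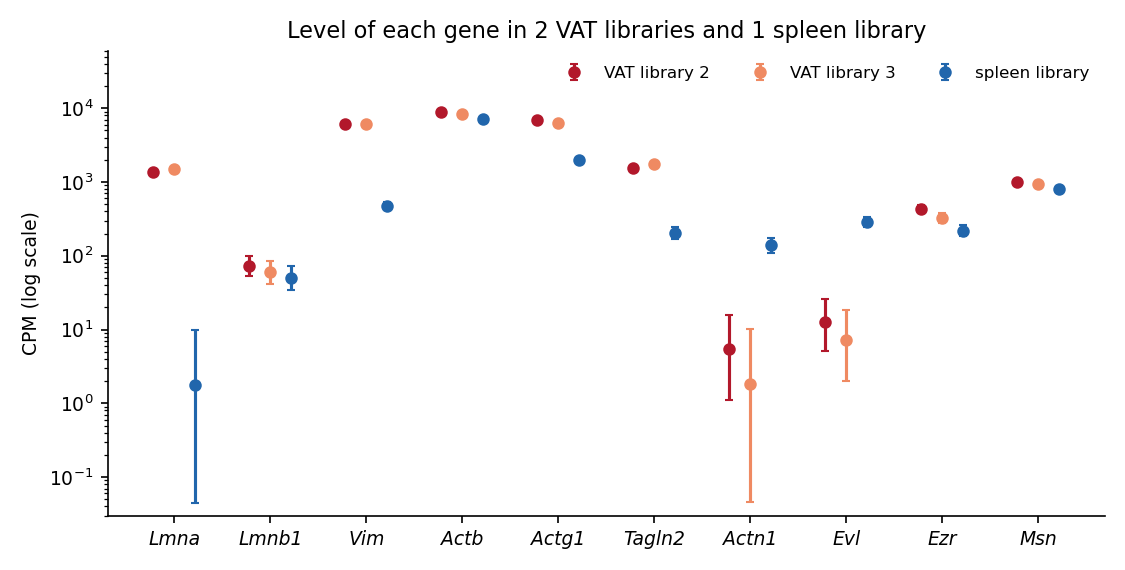
CPM (UMIs scaled to a common library total, log axis) of each of the 10 genes in VAT library 2, VAT library 3 and the spleen library; points are library values and bars exact 95% Poisson intervals. Lmna stands at 1363 and 1485 CPM in VAT and 1.74 in spleen, and Evl and Actn1 lie far lower in VAT. Lmnb1, Actb, Ezr and Msn each differ by less than 2-fold between either VAT library and spleen.

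The A-type and B-type lamins parted. Lmna (chromosome 3, 88481148 to 88509932) had 758 and 815 UMIs in the VAT libraries, seen in 219 of 330 and 205 of 314 cells, against 1 UMI in 1 of 375 spleen cells. Scaled to 1000000 UMIs per library (CPM), these are 1363 and 1485 CPM in VAT and 1.74 CPM in spleen, ratios of 782 (interval 140 to 30923) and 852 (152 to 33689). The wide intervals come from the single spleen UMI. On the smaller of its 2 log2 ratios, Lmna ranked 3rd from the top among the 4635 genes. Counts of 3' ends do not separate lamin A from lamin C, which are spliced from the same gene.

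That 1 spleen UMI lay in a cell with 2171 UMIs, among them 10 of Klrg1, 2 of Il1rl1, 1 of Foxp3, 4 of S100a4 and 50 of the list of AP-1 and immediate early genes, while Vim and Tagln2 had 1 and 0 UMIs there. Klrg1, an inhibitory receptor that marks many tissue Tregs, had UMIs in only 12 of the 375 spleen cells. The cell also held 1 UMI of the haemoglobin gene Hba-a2. Without all cells that carried a UMI of any of the 8 lists of other cell types, Lmna had 608 and 651 UMIs in 275 and 248 VAT cells and 0 UMIs in 202 spleen cells. These VAT levels are 129 and 149 times the floor of 3 counts in spleen, which is a set value and not a confidence limit.

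Lmnb1, on chromosome 18, had 41 and 33 UMIs in the VAT libraries and 29 in spleen. Its ratios of 1.46 (0.885 to 2.43) and 1.19 (0.700 to 2.03) both span 1, so no difference was detectable at this depth. Of the UMIs of Lmna and Lmnb1 together, Lmna held 94.9% and 96.1% in VAT and 3.33% in spleen (exact interval 0.0844% to 17.2%). Each captured mRNA gives 1 UMI whatever its length, but capture can differ between genes. Such a share is therefore compared between libraries and not read as a ratio of transcripts.

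In VAT, Lmna was unevenly spread over cells. After each cell was thinned at random to 800 UMIs to equalise depth, 48.8% and 51.0% of VAT cells had an Lmna UMI, and 0 of 375 spleen cells did (exact upper limit 0.979%). Without thinning the shares were 66.4% and 65.3% in VAT and 0.267% in spleen. At the thinned means of 1.11 and 1.23 UMIs per VAT cell, UMIs falling at random would reach 67.0% and 70.7% of cells. The tenth of cells with the most Lmna UMIs held 45.4% and 42.6% of them, and variance over mean was 2.32 and 2.51. This was not particular to Lmna: Msn was seen in 41.5% and 37.3% of thinned VAT cells, against 56.0% and 53.7% at random.

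Vim (chromosome 2, 13574311 to 13582826), the cytoplasmic intermediate filament gene, had 3437 and 3343 UMIs in the VAT libraries and 273 in spleen. Its level was 6181 and 6092 CPM in VAT and 476 in spleen, 13.0-fold (11.5 to 14.7) and 12.8-fold (11.3 to 14.5) higher. The VAT libraries differed little from each other, at a ratio of 0.986 for library 3 over library 2. At 800 UMIs per cell, 89.7% and 91.1% of VAT cells had a Vim UMI, against 21.1% of spleen cells, and the median cell held 4 UMIs in each VAT library and 0 in spleen. A UMI can also come from free RNA: erythroid markers were seen in 21.9% of the sorted spleen cells and 0.303% and 0.318% of VAT cells, and the part of free RNA in these shares was not tested.

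**Figure D2:**
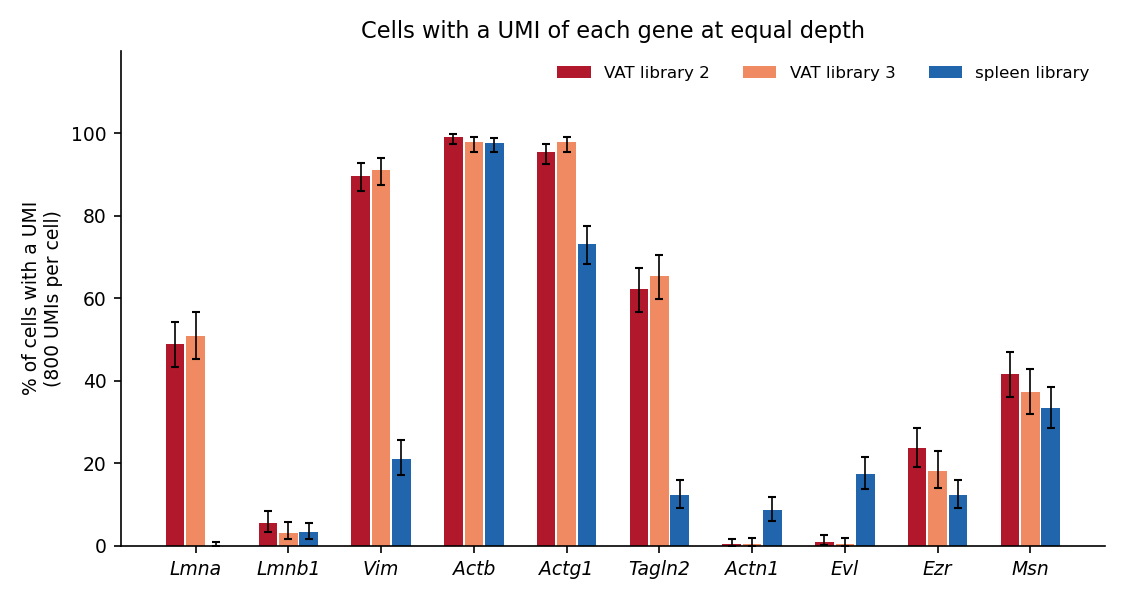
Percent of cells with a UMI of each gene after every cell was thinned to 800 UMIs, in VAT library 2 and 3 (left in each trio) and spleen; bars start at 0 and error bars are exact 95% binomial intervals over cells. Lmna was seen in 48.8% and 51.0% of VAT cells and in 0 spleen cells, whereas Actb was seen in 99.1% and 97.8% of VAT cells and 97.6% of spleen cells.

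The cytoplasmic actins behaved differently from each other. Actb (chromosome 5, 142903115 to 142907976), the most abundant of the 10 genes, had 8853 and 8317 CPM in VAT and 7177 in spleen, ratios of 1.23 (1.18 to 1.29) and 1.16 (1.11 to 1.21). These are larger than counting error alone, but they are close to the shift between scalings given above. Actg1 (chromosome 11, 120345687 to 120348495), whose protein differs from beta actin by only a few residues, had 6966 and 6296 CPM in VAT and 1993 in spleen, 3.50-fold (3.27 to 3.74) and 3.16-fold (2.95 to 3.38) higher. Of the UMIs of both actins, Actg1 held 44.0% and 43.1% in VAT and 21.7% in spleen (interval 20.6% to 22.9%), a share that does not depend on the library total. At 800 UMIs per cell the median was 5 and 4 Actg1 UMIs in VAT cells and 1 in spleen cells, beside 7 and 6 Actb UMIs in VAT cells and 5 in spleen cells. The actin genes are near-identical in coding sequence and have processed pseudogenes, so their counts carry the uncertainty of reads that could be placed on more than 1 copy.

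**Figure D3:**
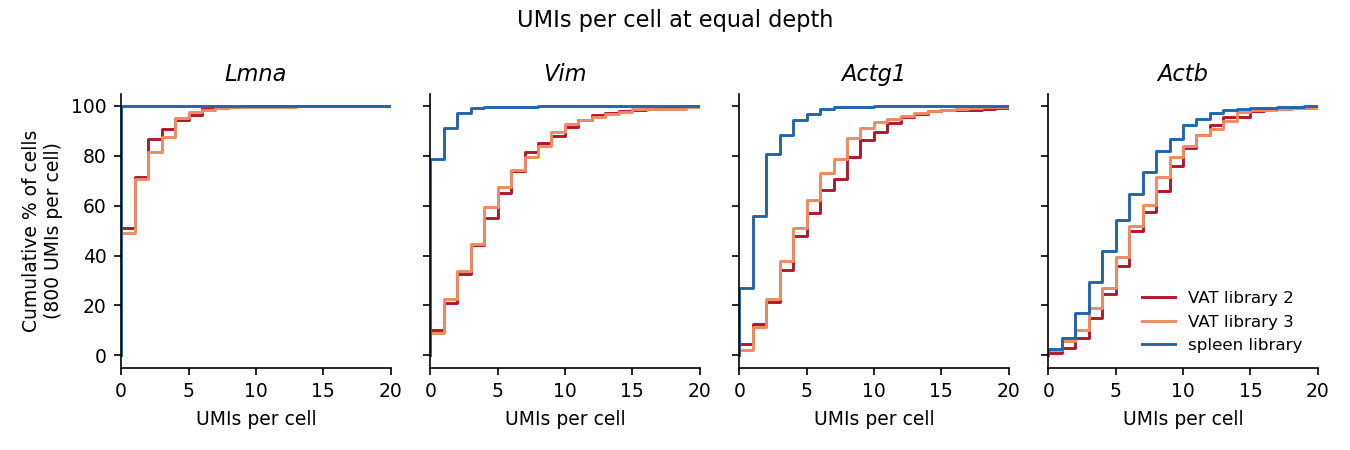
Cumulative percent of cells by UMIs per cell, at 800 UMIs per cell, for Lmna, Vim, Actg1 and Actb in VAT library 2, VAT library 3 and spleen (values above 20 UMIs not drawn). The VAT curves run together for each gene; the spleen curve is far to the left for Vim and Actg1 and near the VAT curves for Actb.

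Among the actin-binding genes, 1 was higher and 2 were lower in VAT. Tagln2 (chromosome 1, 172500246 to 172507375), which encodes transgelin 2, an actin bundler that stabilises filaments at T cell contacts, had 851 and 957 UMIs in the VAT libraries and 118 in spleen, 7.44-fold (6.13 to 9.10) and 8.48-fold (7.0 to 10.4) higher. At 800 UMIs it was seen in 62.1% and 65.3% of VAT cells and 12.3% of spleen cells. Its level was also higher in VAT library 3 than in library 2, at a ratio of 1.14 (1.04 to 1.25).

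Actn1 (chromosome 12, 80167542 to 80260420), which encodes alpha-actinin 1, a crosslinker of filaments, had 3 and 1 UMIs in the VAT libraries and 80 in spleen. The 3 UMIs of VAT library 2 lay in 1 cell. In CPM the level was 5.39 and 1.82 in VAT and 139 in spleen, 25.9-fold (8.53 to 128) and 76.5-fold (13.3 to 3060) lower. Its relative Actn4, alpha-actinin 4, did not share this difference, with 65 and 75 UMIs in VAT and 51 in spleen. Actn1 held 4.41% and 1.32% of the UMIs of both in VAT and 61.1% in spleen.

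Evl (chromosome 12, 108554681 to 108688516), an Ena/VASP protein that promotes filament elongation, had 7 and 4 UMIs in the VAT libraries and 165 in spleen, 22.9-fold (10.8 to 57.7) and 39.5-fold (15.1 to 147) lower. Vasp, of the same family, had 131 and 153 UMIs in VAT and 141 in spleen. Evl thus held 5.07% and 2.55% of the UMIs of both in VAT and 53.9% in spleen. At 800 UMIs, Evl was seen in 0.909% and 0.318% of VAT cells and 17.3% of spleen cells, and Actn1 in 0.303% and 0.318% of VAT cells and 8.53% of spleen cells. Among the 4635 genes, Actn1 and Evl ranked 12th and 13th from the bottom on the smaller of their differences.

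The linkers of the ERM family (ezrin, radixin and moesin), which tie actin filaments to membrane proteins, did not pass 2-fold in both VAT libraries. Ezr (chromosome 17, 6738131 to 6782780) had 242 and 179 UMIs in the VAT libraries and 126 in spleen, ratios of 1.98 (1.59 to 2.48) and 1.48 (1.18 to 1.88), both under 2-fold. Of the members whose interval between the VAT libraries excluded 1, it lay farthest from 1, at 0.750-fold (0.614 to 0.913) in library 3 relative to library 2. Msn (chromosome X, 96096045 to 96168553), the main ERM gene of lymphocytes, had 551 and 513 UMIs in VAT and 465 in spleen, ratios of 1.22 (1.08 to 1.39) and 1.15 (1.02 to 1.31). Rdx, the third of the family, had 57 and 46 UMIs in VAT and 60 in spleen.

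The pattern was then followed into the wider cytoskeleton through 13 gene lists, each gene entering with 20 or more UMIs over the 3 libraries. Of 175 measured genes, 23 were at least 2-fold higher in both VAT libraries, 4 were lower and 148 passed neither bound. Among all 7429 genes with 20 or more UMIs, 10.5% were higher and 6.45% lower. The median log2 ratio of the 175 genes was 0.28 and 0.26, beside 0.04 and -0.06 over all genes. With ribosomal protein genes out of the totals the split was 14 higher and 6 lower. The lists were written with earlier results of these libraries known.

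**Figure D4:**
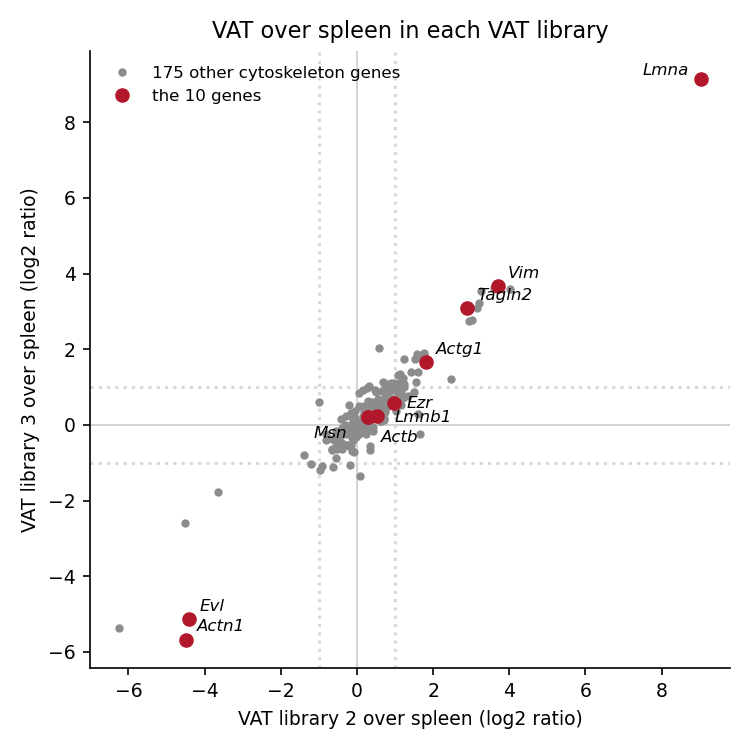
Log2 ratio over spleen in VAT library 2 (x axis) and VAT library 3 (y axis) for the 10 genes (large red points, named) and 175 other cytoskeleton genes (grey); dotted lines mark 2-fold. Both axes share the spleen library. Lmna lies at 9.03 and 9.15, beyond every grey point, and most grey points lie within 2-fold.

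None of the 16 measured genes of the nuclear lamina and envelope other than lamins A and B1 passed the rule. Emd, which encodes emerin, came closest, with 48 and 44 UMIs in VAT and 23 in spleen and log2 ratios of 1.09 and 0.99. It passed with median-of-ratios size factors (1.10 and 1.05), with cells weighted equally, without the 5% of cells with the most UMIs and without cells with other markers, and in cells with a Foxp3 UMI 2 other genes of the list passed. Tmpo, a lamin-binding protein, had 74 and 92 in VAT and 45 in spleen, log2 ratios of 0.76 and 1.09. Lbr, the lamin B receptor, had 68 and 65 UMIs in VAT and 64 in spleen. Lmnb2 had 11 and 3 in VAT and 3 in spleen, too few to enter the list. Among 3 measured linkers of intermediate filaments, Plec, which encodes the crosslinker plectin, was 8.23-fold and 6.89-fold higher, with 311 and 257 UMIs in VAT and 39 in spleen. Macf1, another large linker, had 100 and 125 in VAT and 111 in spleen.

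With all cells used, most genes of actin turnover did not pass 2-fold between tissues. Among 12 genes of monomer supply, Dstn was higher (12 and 14 UMIs in VAT, 4 in spleen) and Tmsb10, a thymosin that holds actin monomers, was lower (902 and 1006 UMIs in VAT, 2154 in spleen; log2 ratios of -1.21 and -1.03, but -1.20 and -0.97 with median-of-ratios size factors, which ends the call). Its relative Tmsb4x had 4624 and 5878 UMIs in VAT and 3355 in spleen, under 2-fold, and Cfl1, the filament-severing cofilin, had 1413 and 1256 in VAT and 1350 in spleen. Of 23 genes of the Arp2/3 complex and its activators, which nucleate branched filaments, 1 was higher (Coro7, with 43 and 49 UMIs in VAT and 20 in spleen, and 0.89 and 1.13 on the log2 scale without ribosomal protein genes in the totals). None of 7 genes of the formins and the Ena/VASP group beyond Evl passed, and of 13 genes of capping, severing and tropomyosin 1 was higher (Gsn, with 14 and 14 UMIs in VAT and 4 in spleen). Gsn also stands on the list of stromal markers, so leaving out cells with such markers removes its UMIs. In cells with a Foxp3 UMI the calls differed. Actr2 (log2 ratios of 1.67 and 1.04), Wasf2 (2.16 and 1.37) and Cyfip1 (2.05 and 1.55) were then higher. So were Inf2 (1.77 and 1.29) of the formins and Tpm4 (1.70 and 1.16), a tropomyosin. Limk2 (-1.74 and -1.43) and Ssh2 (-1.95 and -1.48) of the monomer supply list were then lower.

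Among 18 crosslinking and membrane skeleton genes, 4 were higher and 1 lower, and 2 were higher without ribosomal protein genes in the totals. Ahnak, a giant scaffold under the plasma membrane, had 1498 and 1477 UMIs in VAT and 126 in spleen, 12.3-fold and 12.2-fold higher. Flna, which encodes filamin A, had 348 and 309 in VAT and 152 in spleen, and was under 2-fold on that scale (log2 ratio of 0.88 in library 3). Pls3, a plastin, had 13 and 13 UMIs in VAT and 1 in spleen. Marcksl1 was lower, with 1 and 5 UMIs in VAT and 19 in spleen, but not past 2-fold in library 3 without the 5% of cells with the most UMIs (log2 ratio -0.99).

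Of 12 genes of ERM kinases and membrane partners, 3 were higher. Cd44, the hyaluronan receptor that binds ERM proteins, had 508 and 437 UMIs in VAT and 68 in spleen. Icam1 had 70 and 51 UMIs in VAT and 4 in spleen, and the kinase Slk had 50 and 50 in VAT and 22 in spleen. Slk was not past 2-fold in library 2 without ribosomal protein genes in the totals (log2 ratio of 0.97). Spn, which encodes CD43, a further ERM partner, had 316 and 262 in VAT and 232 in spleen.

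In the other lists, Crip1, a small LIM protein, was higher (1837 and 2201 UMIs in VAT, 198 in spleen) and Pdlim1 lower (2 and 9 in VAT, 59 in spleen) among 15 focal adhesion adaptors. In cells with a Foxp3 UMI, Pdlim1 was not past 2-fold in library 3 (log2 ratio of -0.67). Among 11 myosin genes 2 were higher, Myo1f (80 and 84 UMIs in VAT, 24 in spleen) and Myo1e (33 and 39 in VAT, 16 in spleen). Myo1e was not past 2-fold with cells weighted equally (log2 ratios of 0.70 and 0.82). Myo1f was not past 2-fold in library 2 in cells with a Foxp3 UMI (log2 ratio of 0.65). Myh9, the heavy chain of non-muscle myosin 2A, was not past 2-fold, with 168 and 133 UMIs in VAT and 256 in spleen. Srf, the factor of the CArG box, had 48 and 38 UMIs in VAT and 27 in spleen, and of its 2 measured coactivators Mkl2 was just past 2-fold (15 and 15 UMIs in VAT, 7 in spleen; 0.85 and 0.91 on the log2 scale without ribosomal protein genes in the totals) and Mkl1 was not (37 and 40 in VAT, 26 in spleen).

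Microtubule genes, given for comparison, were higher in 5 of 14 cases (3 without ribosomal protein genes in the totals), among them the tubulins Tuba1a (239 and 264 UMIs in VAT, 73 in spleen) and Tuba4a (91 and 89 in VAT, 35 in spleen) and the microtubule-binding Map4 (44 and 54 in VAT, 15 in spleen). Map4 was not past 2-fold in library 2 without cells with other markers (log2 ratio of 0.82). Tuba1b had 457 and 473 UMIs in VAT and 360 in spleen, and Tubb5 had 232 and 221 in VAT and 318 in spleen.

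Several of these genes are abundant in other cells of fat, and markers of such cells were counted. Stromal markers summed to 25.2 and 29.2 CPM in VAT and 8.72 in spleen, and Gsn made up 14 of 14 and 14 of 16 of those UMIs in VAT and 4 of 5 in spleen, while Dcn, Lum, Pdgfra and Col1a2 had 0 UMIs in all libraries. Smooth muscle and mesothelial markers summed to 3.60 and 3.64 CPM in VAT and 0 in spleen, adipocyte markers to 1.80 and 0 in VAT and 1.74 in spleen, and myeloid markers to 14.4 and 14.6 in VAT and 22.7 in spleen. Endothelial markers (5.39 and 3.64 in VAT, 54.0 in spleen), B cell markers (16.2 and 27.3 in VAT, 134 in spleen) and erythroid markers (1.80 and 1.82 in VAT, 202 in spleen) were higher in spleen, and the CD8 and NK list was even (75.5 and 69.3 in VAT, 73.2 in spleen). Leaving out the 16.7% and 21.0% of VAT cells and 46.1% of spleen cells with any such UMI left the same 4 genes higher and the same 2 lower, with Vim at log2 ratios of 3.74 and 3.67.

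The list of AP-1 and immediate early genes, which enzymatic digestion is known to induce, was higher in 17 of 19 measured genes, at medians of 3.75 and 3.90 on the log2 scale. It moves with the same contrast as Lmna and Vim, and its part in their levels was not tested. Within a VAT library, across cells thinned to 800 UMIs, Lmna had a Pearson r of 0.20 (330 cells) and 0.31 (314 cells) with the summed list, while Vim had 0.15 and -0.05. The cells of a library share its preparation, and the counts are sparse, so these coefficients are descriptions.

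Restricting all libraries to cells with a Foxp3 UMI (128 and 98 in VAT, 130 in spleen) kept the pattern. Lmna then stood at 1322 and 1272 CPM in VAT and 4.94 (1 UMI) in spleen, Vim at 5937 and 6008 in VAT and 479 in spleen, Actg1 at 7369 and 6847 in VAT and 1861 in spleen, and Tagln2 at 1507 and 1853 in VAT and 163 in spleen. Ezr was the exception. It had 296 and 219 CPM in these VAT cells and 252 in these spleen cells, log2 ratios of 0.23 and -0.20.

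Within VAT, Ezr was lower in cells where Foxp3 was seen at 800 UMIs than in cells where it was not, at 0.465-fold (0.306 to 0.684) in library 2 and 0.622-fold (0.375 to 0.985) in library 3. In spleen the corresponding ratio was 1.33 (0.870 to 1.99). For Lmna these ratios were 0.964 and 0.938 in the VAT libraries, and for Vim 0.979 and 0.926. Foxp3 was seen in only 24.2% and 17.5% of thinned VAT cells and 22.7% of thinned spleen cells, so cells without a UMI are not cells without the protein.

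The comparison that the choice of genes did not use is the one within VAT between cells with and without a Klrg1 UMI at 800 UMIs per cell (245 and 85 cells in library 2, 246 and 68 in library 3). Without thinning, 277 of 330 and 280 of 314 VAT cells had a Klrg1 UMI. Part of the undetected cells therefore carried Klrg1, and the ratios below can understate a difference between cells with and without it. Of 8 members with 50 or more VAT UMIs, 0 were 1.5-fold higher and 0 were 1.5-fold lower in both libraries. Over all 3347 genes with as many VAT UMIs, 3.5% were higher and 2.72% lower. Lmna had 1368 and 1476 CPM in Klrg1-detected cells and 1348 and 1517 in undetected cells of libraries 2 and 3, ratios of 1.01 (0.860 to 1.2) and 0.973 (0.823 to 1.16). Vim had ratios of 0.960 (0.889 to 1.04) and 0.955 (0.880 to 1.04), and Actb 0.967 and 1.02. A difference of 1.5-fold between these cells lies outside the counting intervals of Lmna, Vim, Actb and Actg1.

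Tagln2 was the gene with intervals above 1 in both libraries, at 1.23 (1.04 to 1.46) and 1.21 (1.02 to 1.43). Ezr had 1.52 (1.09 to 2.15) in library 2 and 1.13 (0.774 to 1.68) in library 3. These intervals are too narrow, because UMIs clump in cells, and no test over cells was made.

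**Figure D5:**
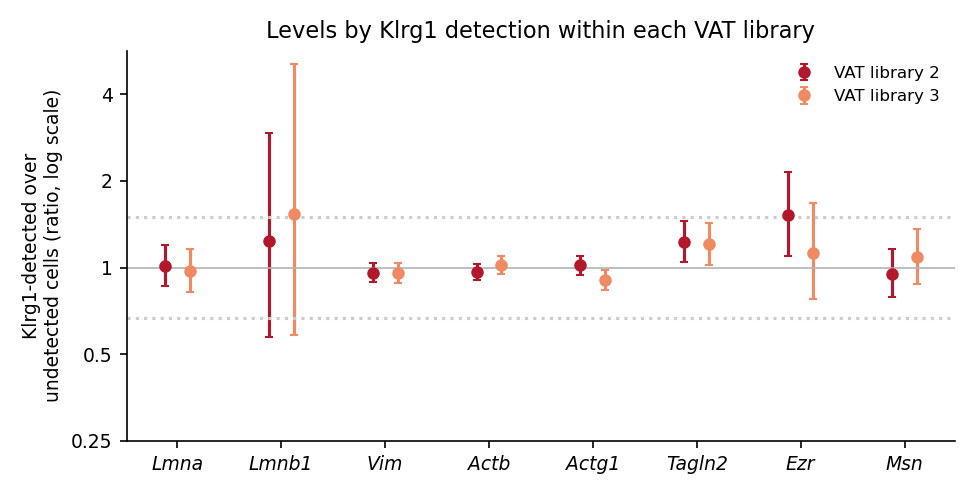
Ratio (log axis) of each gene's level in Klrg1-detected over undetected VAT cells, with exact 95% intervals for counting error, in VAT library 2 and VAT library 3; dotted lines mark 1.5-fold. Evl and Actn1 had too few VAT UMIs. Lmnb1 lies above 1.5 in library 3 and Ezr in library 2, and no gene does so in both.

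In spleen, the 12 cells with a Klrg1 UMI had 28 Vim UMIs and the other 363 cells 245, or 1471 and 442 CPM, a ratio of 3.33 (2.17 to 4.93). It rested on 1 cell with 17 Vim UMIs, without which the ratio was 1.41 (0.694 to 2.57). Evl and Actn1 had 0 UMIs in the 12 cells and 165 and 80 in the other 363, too few cells to show a difference for Actn1 (ratio 0, interval up to 1.37) and with an upper limit of 0.659 for Evl.

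Correlations between members were small where counts allowed one to be read. Lmna, Vim, Actb, Actg1, Tagln2 and Msn were seen in at least 20% of thinned cells of each VAT library, and their 15 pairs gave Pearson r values between -0.04 and 0.21 for library 2 and between -0.04 and 0.26 for library 3. In spleen, where Lmna has no value, 10 pairs gave -0.03 to 0.19. Pairs with the sparse Lmnb1, Evl and Actn1 are not read. Vim and Tagln2 gave 0.20 and 0.26 in VAT and 0.06 in spleen, Lmna and Vim 0.21 and 0.10 in VAT, and Actb and Actg1 0.18 and 0.15 in VAT and 0.19 in spleen. VAT cells with an Lmna UMI after thinning (161 and 160 cells) had 1.23 and 1.24 times the Vim level and 1.17 and 1.43 times the Tagln2 level of VAT cells in which thinning left none, but 0.978 and 0.932 times the Actb level.

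Among 403 genes seen in at least 20% of thinned cells of each VAT library, those most like Lmna by the smaller of its r in the VAT libraries were the AP-1 gene Fosb (0.32 and 0.30), Crip1 (0.20 and 0.17), the zinc finger gene Klf6 (0.15 and 0.25), Myadm (0.12 and 0.17) and the AP-1 gene Junb (0.11 and 0.16). Fosb, Klf6 and Junb all stand on the list of AP-1 and immediate early genes. The median of the smaller r over the 403 genes was -0.04. Those most like Vim were the calcium-binding S100a6 (0.25 and 0.22), Tagln2, Myadm (0.16 and 0.25), the galectin gene Lgals1 (0.16 and 0.19) and S100a4 (0.24 and 0.15). Those most like Actb were Lrrc58 (0.46 and 0.45), S100a4 (0.17 and 0.21), Actg1, Ly6e (0.19 and 0.12) and Cfl1 (0.22 and 0.11).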

How the data were processed

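What the authors deposited are raw UMI counts per gene and cell, per the values of the file and the labels. Per the submitters' processing notes, TopHat2, SAMtools and the build mm10 were used. The annotation used for counting, the filter on cells and any removal of doublets are not given in the sources used here, and no doublet caller was run. Reads that fit several copies of a gene may have been dropped or shared. A table of label values per cell was not used.

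Columns were tied to GEO samples by title and grouped by the source name. UMIs were summed per library and divided by its total. log2 ratios add 0.5 to each count; printed ratios do not. Intervals are exact at 95% (Clopper-Pearson for shares and ratios, Poisson for levels) and cover counting error only, which is too narrow because UMIs clump in cells. The floor of 3 counts corresponds to 5.39 and 5.47 CPM in the VAT libraries and 5.23 in spleen. Ranks use the smaller of both log2 ratios. Cells were thinned to 800 UMIs without replacement (seed 0); none had fewer. Correlations use log(1 + UMIs).

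The members, the gene lists and the rules were chosen with earlier results of these data known. Named genes are the 10 members, up to 3 genes per list and direction past 2-fold, the 5 most alike genes, and checks of the sort; family relatives, list genes under 2-fold and genes of the spleen cell with Lmna were named after their values were seen. Some genes and 1 list are not reported here. The identity list of T cells and Tregs had 2 genes higher and 1 lower of 15. Ratio intervals were tested on simulated library sums with no clumping of UMIs in cells. That simulation cannot show how wide they should be here. Positions and promoter sequences are from RefSeq (GRCm38.p6). Python 3.11.15, numpy 2.4.6, pandas 2.3.3, scipy 1.17.1 and matplotlib 3.10.9 were used. Alternatives varied the totals, the cells, the folds, the count minimum, the thinning and the libraries.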

Additional observations from a re-analysis of the deposited data

How the results depend on the processing

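No paired analysis was possible because no label gives an animal; the titles of the spleen library and of VAT library 2 share the number 2, which no label explains, and VAT library 3 has no spleen partner. The counts of 4 members higher and 2 lower held under every alternative run except that 3 were higher at 4-fold. Over all genes the counts were 831 higher and 593 lower at 1.5-fold, 200 and 53 at 4-fold, 783 and 479 with 20 or more UMIs, and 1469 and 1918 with 1 or more; 342 were lower without ribosomal protein genes in the totals, since spleen has the larger ribosomal share. Requiring 1 VAT library in place of both gave 593 to 627 higher and 343 to 409 lower genes, and over the cytoskeleton lists 29 to 34 higher and 6 to 9 lower (9 without VAT library 2). These lists gave 47 higher and 10 lower at 1.5-fold, 7 and 2 at 4-fold, and 14 higher without ribosomal protein genes in the totals. At 1.2-fold, on log2 ratios with 0.5 added to each count, 1 member (Tagln2) was higher in Klrg1-detected cells; without that addition Lmnb1, at 1.23 and 1.53, would pass too. No called member changed sign. Among called list genes, Gsn had log2 ratios of -0.65 and -0.54 without cells with other markers, a step that removes its own UMIs. Mkl2 had -0.33 in VAT library 3 in cells with a Foxp3 UMI. Of the values of single genes and lists under alternatives, 326 moved by less than their bound and 160 by more. The bound was the spread between VAT libraries or an interval for values of genes, and 1.5-fold for counts of list genes. Of the counts over the members, all genes and the cytoskeleton lists together, 52 stayed equal or within 1.5-fold and 18 moved further. Depth limits Lmnb1, Lmna in spleen, and Evl and Actn1 in VAT.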

Other observations

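Lrrc58, the gene most like Actb across cells, had 1193 and 1127 UMIs in the VAT libraries and 1032 in spleen. That is 24.2% and 24.7% of the Actb UMIs in VAT and 25.1% in spleen, and r with Actb was 0.46 and 0.45 in VAT and 0.46 in spleen. With counts scaled to 10000 per cell and no thinning, r was 0.68 and 0.60 in VAT and 0.55 in spleen. Whether the rows of Lrrc58 and Actb share reads was not tested.

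Of the genes most like Lmna, Myadm, which encodes a membrane protein of the myeloid-associated differentiation marker family, had 247 and 207 UMIs in VAT and 1 in spleen, and Fosb had 1336 and 1129 in VAT and 0 in spleen. Of those most like Vim, S100a6 had 3214 and 3750 UMIs in VAT and 103 in spleen, and Lgals1 had 664 and 842 in VAT and 68 in spleen.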
